A study of Mus musculus with 6 samples.

Results

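This account follows 29 genes of cholesterol synthesis and its control by the transcription factor SREBF2 in liver tumors of CMRtdT mice. The genes were taken from a list of symbols that was drawn up with earlier results of these data known but names no measured value as a criterion, and all 29 were found among the 35683 genes measured. They comprise 19 enzymes of the route from acetyl-CoA to sterols, counting Ggps1 of the side branch to protein prenylation. The others are 4 SREBP regulators, Srebf2 itself among them, and 6 genes of sterol transport, uptake control and esterification. The genes of the pathway outside this list come from separate lists and are given after the members. RNAseq was performed on 6 macroscopic tumors, 3 from mouse 2 and 3 from mouse 1. Both animals were male CMRtdT mice on a C57BL/6 background and carried the same alleles, Ctnnb1 ex3/+, MUP-uPA and R26 tdT. Cre removes exon 3 of 1 Ctnnb1 allele, which leaves a β-catenin that escapes degradation, and switches on the tdTomato reporter. Cre came from an AAV8 vector with the hepatocyte-specific TBG promoter, given at 8 weeks of age, and MUP-uPA damages hepatocytes. High-fat feeding began at 6 weeks of age, and tumors were excised 6.5 months after the virus, with food withdrawn a few hours earlier. All 6 tumors therefore share 1 condition, no liver outside a tumor was part of these data, and the only contrast in the labels is between the animals.

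Cells make cholesterol from acetyl-CoA through the mevalonate pathway, whose isoprenoid intermediates also supply protein prenylation, dolichol and ubiquinone. When sterols in the endoplasmic reticulum are scarce, SCAP escorts the SREBP-2 precursor encoded by Srebf2 to the Golgi, where proteases release its active part, and when sterols are plentiful the INSIG proteins hold SCAP back. The released factor activates the genes of nearly all enzymes of the pathway, so these transcripts tend to move together, and the liver is a main site of the synthesis.

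Promoters are shown first because the released factor activates the genes of nearly all enzymes of the pathway. The list itself was drawn up by pathway, and its members need not share control. RefSeq promoter windows, from 250 bases before to 50 bases after an annotated start, were matched by symbol for 23 of 29 members on GRCm38.p6. Fdps, Fdft1, Sqle, Stard4, Soat2 and Npc1 had none. Dhcr7, Insig2, Pmvk and Scap had several starts, and a motif in any window of a gene was counted. Matches on either strand were searched for TCACNCCAC, a core of the sterol regulatory element that SREBPs bind, for CCAAT, the box bound by NF-Y, and for GGGCGG, the GC box bound by Sp1. No matches of different motifs overlapped in the members. The windows below were chosen to show an early enzyme, a late enzyme, a sterol-controlled regulator and a gene with the opposite pattern across the tumors. Capitals mark the matches, and each is printed in the direction of its gene.

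Hmgcs1, chr13:119690101-119690400, plus strand: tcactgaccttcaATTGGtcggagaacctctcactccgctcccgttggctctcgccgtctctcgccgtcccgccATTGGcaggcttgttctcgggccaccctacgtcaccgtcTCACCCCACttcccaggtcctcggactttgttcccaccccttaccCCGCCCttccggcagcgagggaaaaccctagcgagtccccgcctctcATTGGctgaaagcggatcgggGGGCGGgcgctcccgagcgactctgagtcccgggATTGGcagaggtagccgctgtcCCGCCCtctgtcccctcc

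Cyp51, chr5:4104648-4104947, minus strand: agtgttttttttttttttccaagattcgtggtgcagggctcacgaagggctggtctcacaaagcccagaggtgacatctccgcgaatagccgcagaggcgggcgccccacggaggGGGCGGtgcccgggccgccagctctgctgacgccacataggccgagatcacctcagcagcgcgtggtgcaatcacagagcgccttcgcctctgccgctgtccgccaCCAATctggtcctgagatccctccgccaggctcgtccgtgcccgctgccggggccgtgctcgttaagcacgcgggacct

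Insig1, chr5:28071162-28071461, plus strand: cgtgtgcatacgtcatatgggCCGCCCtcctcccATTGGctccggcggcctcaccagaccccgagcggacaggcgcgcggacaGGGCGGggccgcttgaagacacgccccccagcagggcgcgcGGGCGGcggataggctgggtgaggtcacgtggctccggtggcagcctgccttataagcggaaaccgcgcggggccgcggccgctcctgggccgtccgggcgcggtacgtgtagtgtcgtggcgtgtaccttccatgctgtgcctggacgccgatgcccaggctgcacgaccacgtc

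Soat1, chr1:156474279-156474578, minus strand: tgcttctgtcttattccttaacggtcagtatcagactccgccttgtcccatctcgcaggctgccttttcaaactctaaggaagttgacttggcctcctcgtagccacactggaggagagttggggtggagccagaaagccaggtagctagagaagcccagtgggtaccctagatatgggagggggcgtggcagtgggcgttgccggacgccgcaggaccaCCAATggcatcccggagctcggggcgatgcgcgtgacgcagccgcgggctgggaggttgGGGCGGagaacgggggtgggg

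The exact sterol element core occurred in 1 of 23 members, Hmgcs1, where it begins at base -137 counted from the start as base 0. It occurred in 1.44% of all 27025 genes with a window and in 1.40% of the 9587 of them that averaged at least 1 TPM here. A CCAAT box was present in 21 of 23 members, all but Acat2 and Scap, against 43.4% of the expressed genes and 41.1% of all genes. A GC box was present in 21 of 23 members, all but Ggps1 and Pmvk, against 67.8% of the expressed genes and 38.2% of all genes. Counted per gene over any of its windows, both boxes were present in 19 of 23 members, against 29.4% of the expressed genes. In Insig2 they lay in windows of different starts. The Mvk window held 5 CCAAT boxes and the Hmgcs1 window 4, while Soat1 and Cyp51 each had 1 CCAAT box and 1 GC box. Ggps1 and Mylip, which shared the tumor pattern of Soat1, had 3 CCAAT boxes each. These are matches of letters, and binding was not measured.

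The tumors were sequenced to between 19130532 and 27681766 estimated counts each. Every value below is in TPM, a level corrected for transcript length and library size and summed over the transcripts of a gene, unless another scale is named. Mitochondrial transcripts took 27.2% to 37.2% of the TPM in mouse 2 and 15.0% to 20.7% in mouse 1, which lowers the TPM of all other genes in mouse 2. Tumor 1 of mouse 1 stood apart from the other 5 tumors. Over the 12518 genes that averaged at least 1 TPM, Pearson's r of log2(TPM + 1) was 0.519 to 0.538 in the 5 pairs that include it. It was 0.949 to 0.974 in 9 of the other pairs and 0.989 between tumors 2 and 3 of mouse 1. The mean chi-square per gene between the counts of these last 2 tumors was 7.44, where sampling noise alone gives about 1, against 69.8 to 208 in those 9 pairs. They were kept as separate tumors, and whether they derive from a common clone was not tested. In the comparison of the mice, the main counts and fold changes are given with and without tumor 1 of mouse 1.

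Marker lists moved with the same tumor. All 6 hepatocyte markers, including Alb and Hnf4a, were lowest in tumor 1 of mouse 1, with a summed level of 17311 to 28873 TPM in mouse 2, against 1093, 31662 and 31493 TPM in tumors 1, 2 and 3 of mouse 1. Macrophage markers summed to 196 to 622 TPM in mouse 2, against 107, 714 and 710.5 TPM in mouse 1. Of 6 T and NK cell markers 5, all but Il7r, were lowest in tumor 1 of mouse 1, against 22.2% of all genes. They were low everywhere, with a sum of 0.537 TPM in that tumor and of 2.60 to 7.46 TPM elsewhere. Cd3e, Cd3d and Cd8a were at 0 in that tumor, and at 0.220 to 1.26, 0.218 to 0.888 and 0.070 to 0.593 TPM elsewhere. The sum of the stellate cell and fibroblast markers was 90.5 TPM in tumor 1 of mouse 1 and between 24.0 and 87.7 TPM elsewhere, but most of the 90.5 TPM was Acta2, 11.0-fold above its highest level elsewhere, while Lrat was lowest in that tumor. Of 5 cholangiocyte markers 4 were highest there, against 62.6% of all genes, with a sum of 44.2 TPM and of 4.61 to 36.3 TPM elsewhere. With counts scaled by TMM, as described below, 2 of the 5 were highest there, against 43.7% of all genes. The part of cell composition in the values below was not tested, and in bulk tissue fewer cells of a type and less RNA per cell cannot be told apart.

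The synthesis enzymes were abundant in 5 of 6 tumors and low in tumor 1 of mouse 1. The 19 enzymes summed to 1955, 2463 and 2619 TPM in tumors 1, 2 and 3 of mouse 2, against 587, 2856 and 2892 TPM in tumors 1, 2 and 3 of mouse 1. Their median was 75.5, 90.8 and 82.7 TPM in mouse 2, against 26.6, 107 and 112 TPM in mouse 1. All enzymes but Ggps1, 18 of 19, were lowest in tumor 1 of mouse 1, as were 22 of 29 members, against 22.2% of all genes. At least 2-fold below every other tumor there were 14 enzymes and 18 members, against 14.4% of all genes. Highest there were 4 members, Ggps1, Mylip, Soat1 and Npc2, against 62.6% of all genes, and Ggps1, Mylip and Soat1 were at least 2-fold above every other tumor, against 39.3%. Counts were also scaled by TMM, which assumes that most genes are level between tumors. In tumor 1 of mouse 1, 22.1% of all genes still lay at least 2-fold above every other tumor and 23.3% at least 2-fold below, so the assumption is doubtful there. On this scale 25 members were lowest in that tumor, against 40.3% of all genes, and 22 were at least 2-fold below every other tumor, against 23.3%. Its summed enzyme level on that scale was 652 CPM, against 4339 to 6323 CPM in the other 5 tumors.

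**Figure D1:**
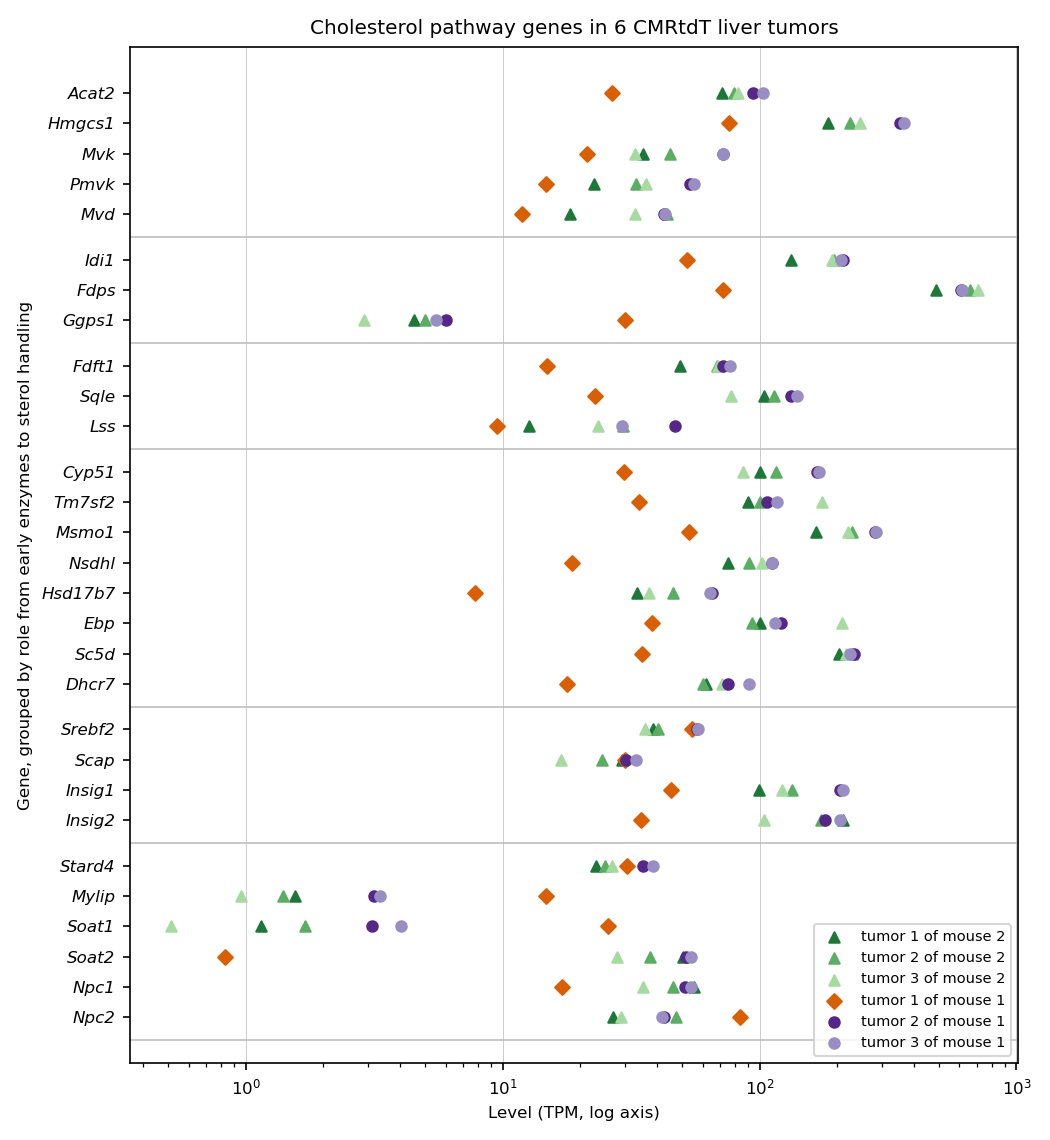
Level of each of the 29 members (TPM, log axis) in the 6 tumors, with triangles for mouse 2, a diamond for tumor 1 of mouse 1 and circles for tumors 2 and 3 of mouse 1. The diamond is the lowest point for 22 members and the highest for Ggps1, Mylip, Soat1 and Npc2.

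The first steps join acetyl-CoA units and build mevalonate and its phosphates. Below, each triplet of values is for tumors 1, 2 and 3 in that order. Acat2, the cytosolic thiolase that opens the pathway, had 71.3, 79.7 and 82.7 TPM in mouse 2, against 26.6, 94.5 and 104 TPM in mouse 1. Hmgcs1 (chr13:119690351-119708260), which makes HMG-CoA in the cytosol, had 185, 226 and 245 TPM in mouse 2, against 76.1, 351 and 364 TPM in mouse 1. Tumors 2 and 3 of mouse 1 were the highest for both genes and tumor 1 of mouse 1 the lowest, so the ranges of the animals overlapped through that tumor. Mvk, the mevalonate kinase, had 35.2, 44.9 and 32.6 TPM in mouse 2, against 21.3, 72.2 and 72.2 TPM in mouse 1. Pmvk, which adds the next phosphate, had 22.7, 33.1 and 36.2 TPM in mouse 2, against 14.8, 53.6 and 55.8 TPM in mouse 1. Mvd, the decarboxylase that yields isopentenyl diphosphate, had 18.3, 43.7 and 32.7 TPM in mouse 2, against 11.9, 42.5 and 42.7 TPM in mouse 1. Mvk and Pmvk were likewise highest in tumors 2 and 3 of mouse 1 and lowest in tumor 1 of mouse 1. For Mvd, tumor 2 of mouse 2 stood at the level of tumors 2 and 3 of mouse 1. Reads of Acat2 may be shared with Tcp1 on the opposite strand and with the paralog Acat3, which had 122 to 128 TPM in mouse 2, against 3.89, 158 and 168 TPM in mouse 1.

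The isoprenoid steps held the most abundant member and the only enzyme with an opposite pattern. Idi1, the isomerase of isopentenyl diphosphate, had 133, 195 and 192 TPM in mouse 2, against 52.1, 211 and 208 TPM in mouse 1. Fdps (chr3:89093588-89101967), which makes farnesyl diphosphate, the branch point towards sterols, had 488, 659 and 707 TPM in mouse 2, against 72.1, 609.7 and 613 TPM in mouse 1. Fdps was the first of 29 members by level in every tumor but tumor 1 of mouse 1, where Npc2 and Hmgcs1 exceeded it. Ggps1 (chr13:14049790-14063566), which lengthens farnesyl diphosphate to geranylgeranyl diphosphate for protein prenylation, had 4.51, 4.99 and 2.88 TPM in mouse 2, against 30.1, 6.02 and 5.50 TPM in mouse 1. The ratio of Fdps to Ggps1 levels was thus 108, 132 and 245 in mouse 2, against 2.40, 101 and 112 in mouse 1. Ggps1 overlaps Arid4b on the opposite strand, which also had its highest level, 14.9 TPM, in tumor 1 of mouse 1, and without strand information their reads may be shared.

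Squalene and lanosterol are made by 3 enzymes that commit the pathway to sterols. Fdft1, the squalene synthase, had 48.9, 68.0 and 69.1 TPM in mouse 2, against 15.0, 72.0 and 76.9 TPM in mouse 1. Sqle (chr15:59315092-59331193), the squalene monooxygenase and a rate-limiting step of the branch, had 104, 114 and 77.4 TPM in mouse 2, against 22.9, 133 and 140.1 TPM in mouse 1. Lss, which closes the ring to lanosterol, had 12.7, 29.5 and 23.4 TPM in mouse 2, against 9.54, 47.0 and 29.2 TPM in mouse 1. Fdft1 and Sqle had their 5 higher values within 1.57-fold and 1.81-fold of each other, while those of Lss spread 3.70-fold. Part of the Lss level came from short or retained-intron transcripts, and Lss-202, of 352 bases, took 35.9% of it in tumor 2 of mouse 1 and 28.9% in tumor 3 of mouse 2.

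The steps after lanosterol remove methyl groups and move or reduce double bonds. Cyp51 (chr5:4080674-4104697), the lanosterol demethylase, had 100.1, 116 and 86.3 TPM in mouse 2, against 29.7, 167 and 171 TPM in mouse 1. Tm7sf2, a sterol reductase, had 90.2, 100.2 and 174 TPM in mouse 2, against 34.0, 107 and 117 TPM in mouse 1. Msmo1, the methylsterol oxidase, had 166, 229 and 220.0 TPM in mouse 2, against 53.4, 282 and 285 TPM in mouse 1. Cyp51 was higher in tumors 2 and 3 of mouse 1 than in any tumor of mouse 2, whereas Tm7sf2 was highest in tumor 3 of mouse 2. Nsdhl, the dehydrogenase that acts with the oxidase, had 75.5, 90.8 and 102 TPM in mouse 2, against 18.6, 111 and 112 TPM in mouse 1. Hsd17b7, the ketone reductase of the same demethylation, had 33.3, 46.1 and 37.1 TPM in mouse 2, against 7.84, 65.3 and 64.1 TPM in mouse 1. Ebp, the isomerase that moves a double bond, had 100.5, 93.4 and 209 TPM in mouse 2, against 38.0, 122 and 115 TPM in mouse 1. On TPM, Tm7sf2 and Ebp were highest in tumor 3 of mouse 2 and the other late enzymes were not, but on TMM-scaled counts that tumor was highest for 12 of 19 enzymes, among them Msmo1, Nsdhl, Sc5d and Dhcr7, against 21.5% of all genes. Sc5d (chr9:42251592-42264300), the sterol desaturase, had 203, 229 and 217 TPM in mouse 2, against 34.9, 233 and 226 TPM in mouse 1. Dhcr7, the last reductase in 1 branch of the pathway, had 61.9, 60.4 and 71.5 TPM in mouse 2, against 17.8, 75.7 and 90.8 TPM in mouse 1. Sc5d was the most even member, with a 1.15-fold range over the 5 tumors other than tumor 1 of mouse 1, where it was 5.82-fold below the lowest of them.

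**Figure D2:**
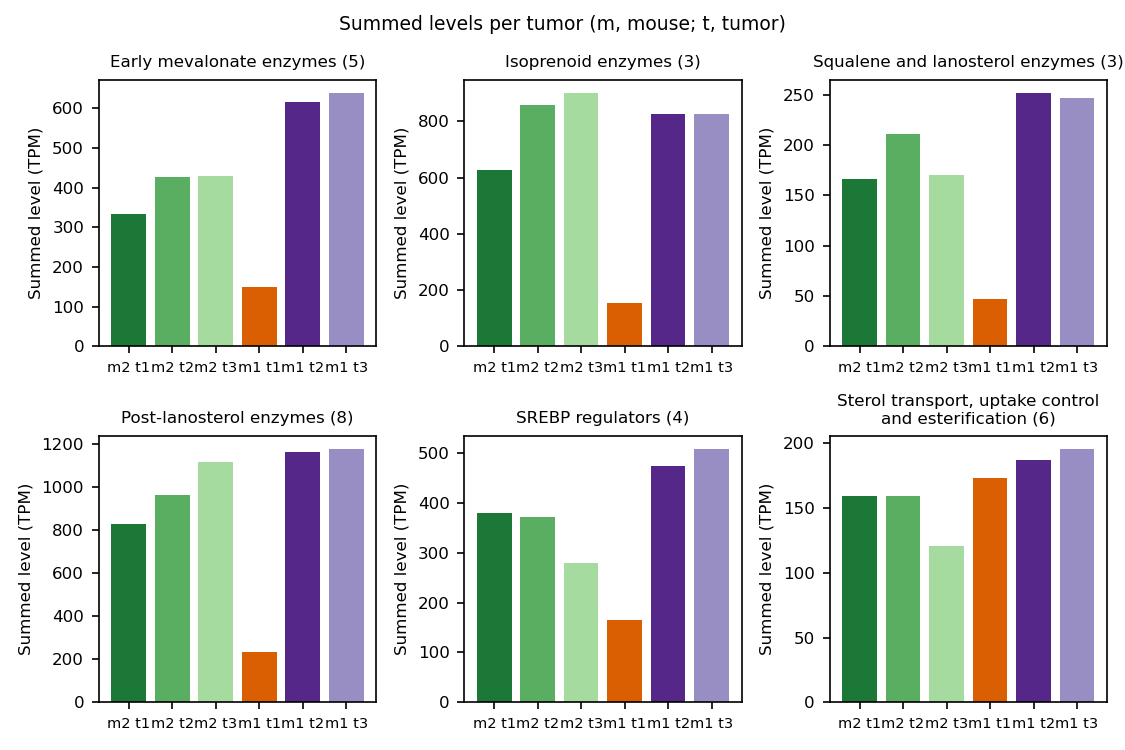
Summed level (TPM) of each group of members in the 6 tumors, as bars from 0. The 4 enzyme groups and the SREBP regulators were lowest in tumor 1 of mouse 1, while the genes of transport, uptake control and esterification summed to 173 TPM there, within their range of 120.2 to 195 TPM in the other tumors. On TMM-scaled counts this last group was also lowest there, at 290.0 CPM against 494 to 566 CPM.

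Of the regulators, Insig1 and Insig2 were low in tumor 1 of mouse 1 on both scales, and Srebf2 and Scap on TMM-scaled counts alone. Srebf2 (chr15:82147269-82205379), which encodes SREBP-2, had 38.4, 40.3 and 36.0 TPM in mouse 2, against 54.8, 57.1 and 57.8 TPM in mouse 1. Scap, the sterol-sensing escort, had 29.2, 24.4 and 16.8 TPM in mouse 2, against 29.9, 30.2 and 33.0 TPM in mouse 1. For both genes tumor 1 of mouse 1 lay close to tumors 2 and 3 of the same mouse on TPM. Every tumor of mouse 2 lay below every tumor of mouse 1 for both on TPM, as it did for 41.9% of all genes. On TMM-scaled counts tumor 1 of mouse 1 was the lowest of 6 for both, with Srebf2 at 204, 174 and 199 CPM in mouse 2, against 124, 194 and 199 CPM in mouse 1, and Scap at 123, 93.7 and 100.3 CPM in mouse 2, against 56.3, 91.4 and 101 CPM in mouse 1. Insig1 (chr5:28071412-28078662), a retention protein that is itself a target of SREBP-2, had 99.2, 134 and 122 TPM in mouse 2, against 45.0, 206 and 211 TPM in mouse 1. Insig2, its relative with a liver-specific transcript that insulin lowers, had 212, 173 and 104 TPM in mouse 2, against 34.7, 180.2 and 206 TPM in mouse 1. The Insig genes thus had the pattern of the enzymes, at least 2.20-fold below every other tumor in tumor 1 of mouse 1. The ratio of Hmgcs1 to Srebf2 levels was 4.82, 5.60 and 6.81 in mouse 2, against 1.39, 6.16 and 6.30 in mouse 1, and that of Insig1 to Srebf2 was 2.58, 3.32 and 3.40 in mouse 2, against 0.822, 3.61 and 3.66 in mouse 1. The deposited values are transcript levels, and cleavage of SREBP-2 was not measured. Retained-intron transcript Srebf2-205 made up 18.3% to 29.2% of the Srebf2 level over the 6 tumors.

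The sterol-handling members split in both directions. Stard4, a cytosolic sterol carrier, had 23.0, 25.1 and 26.7 TPM in mouse 2, against 30.5, 35.3 and 38.6 TPM in mouse 1. Mylip, a ubiquitin ligase induced by liver X receptors that limits lipoprotein uptake, had 1.56, 1.40 and 0.962 TPM in mouse 2, against 14.8, 3.15 and 3.34 TPM in mouse 1. Stard4 was lowest in a tumor of mouse 2 on TPM, but on TMM-scaled counts it was lowest in tumor 1 of mouse 1, by 1.66-fold to 2.25-fold. Mylip was at most 3.34 TPM in the 5 other tumors and 4.42-fold above the highest of them in tumor 1 of mouse 1. The sterol acyltransferases store cholesterol as esters, Soat1 in many cell types and Soat2 in hepatocytes and enterocytes. Soat1 (chr1:156428108-156474328) had 1.14, 1.70 and 0.51 TPM in mouse 2, against 25.7, 3.12 and 4.04 TPM in mouse 1. Soat2 (chr15:102150415-102163469) had 50.4, 37.4 and 27.9 TPM in mouse 2, against 0.829, 51.8 and 53.9 TPM in mouse 1. The order of this pair was inverted in tumor 1 of mouse 1, with Soat1 31.0-fold above Soat2, while Soat2 was 22.0-fold to 54.7-fold above Soat1 in mouse 2 and 13.3-fold and 16.6-fold above it in tumors 3 and 2 of mouse 1. Of the Soat1 level in that tumor, 28.3% came from the retained-intron transcript Soat1-205 of 452 bases, which had 7.26 TPM there and was listed at 0 in the other 5, and the coding transcript Soat1-201 alone had 11.7 TPM there and at most 2.52 TPM elsewhere. Npc1 and Npc2 encode the membrane and soluble proteins that export cholesterol from lysosomes. Npc1 had 55.6, 46.1 and 35.2 TPM in mouse 2, against 17.0, 51.4 and 53.9 TPM in mouse 1. Npc2 had 27.0, 47.3 and 28.9 TPM in mouse 2, against 84.0, 42.3 and 41.7 TPM in mouse 1. Npc2 was the most abundant member of tumor 1 of mouse 1, and the ratio of Npc1 to Npc2 was 2.06, 0.977 and 1.22 in mouse 2, against 0.203, 1.21 and 1.29 in mouse 1. With TMM-scaled counts Npc2 was no longer highest there, and its level was 0.881 times that of the highest other tumor.

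**Figure D3:**
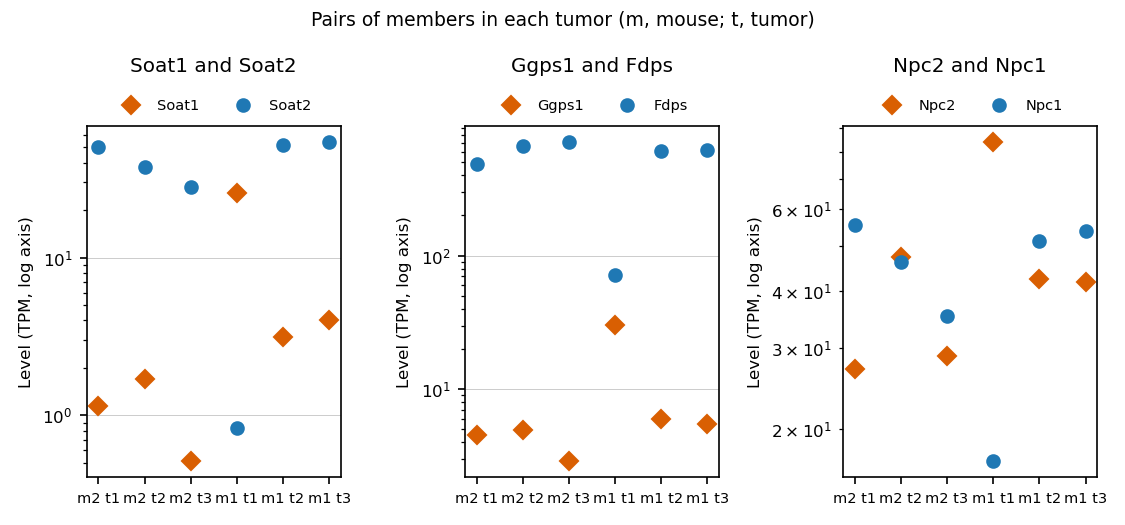
Levels (TPM, log axis) of Soat1 and Soat2, of Ggps1 and Fdps, and of Npc2 and Npc1 in each tumor, with mouse 2 on the left. In tumor 1 of mouse 1 Soat1 lies above Soat2, Ggps1 approaches Fdps to within 2.40-fold, and Npc2 lies above Npc1.

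Transcript shares in tumor 1 of mouse 1 lay outside those of the other 5 tumors for several members, of which Tm7sf2, Fdps, Insig2, Sc5d and Dhcr7 are given here. Tm7sf2-201, a coding transcript, took 89.3%, 85.2% and 89.8% of the Tm7sf2 level in mouse 2, against 51.9%, 86.7% and 87.8% in mouse 1. Retained-intron transcripts Tm7sf2-211 and Tm7sf2-204 took 13.1% and 13.3% in tumor 1 of mouse 1. Tm7sf2 overlaps exons of Vps51 on the same strand, so their reads may be shared. Vps51 had 10.7, 17.9 and 11.5 TPM in mouse 2, against 41.8, 16.2 and 16.4 TPM in mouse 1. Fdps-203, a coding transcript of 1382 bases, took 48.0%, 40.7% and 56.7% of the Fdps level in mouse 2, against 10.6%, 37.1% and 43.6% in mouse 1. Fdps-201, of 1237 bases, took 47.1%, 56.2% and 39.4% in mouse 2, against 88.4%, 58.9% and 51.7% in mouse 1. The Fdps level of tumor 1 of mouse 1 was therefore mostly Fdps-201, at 63.7 TPM, with 7.67 TPM of Fdps-203. Sc5d-202 took 71.9%, 70.2% and 74.3% of the Sc5d level in mouse 2, against 49.6%, 69.5% and 69.1% in mouse 1. Insig2-201 took 46.4%, 50.4% and 56.1% of the Insig2 level in mouse 2, against 81.7%, 48.3% and 43.5% in mouse 1, and Dhcr7-202 took 71.9%, 75.3% and 69.4% of the Dhcr7 level in mouse 2, against 85.6%, 73.2% and 65.0% in mouse 1. Such shares rest on how estimated reads were divided between overlapping transcripts. Coding transcripts made up at least 90% of the level of 20 of 29 members in every tumor.

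**Figure D4:**
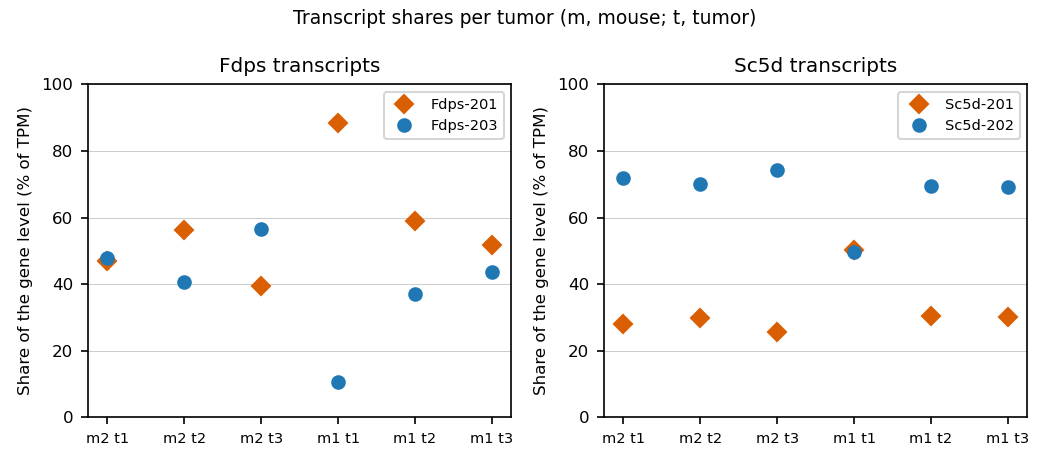
Share (% of TPM) of 2 transcripts each in the levels of Fdps and Sc5d, per tumor, with mouse 2 on the left. Fdps-203 is at 10.6% in tumor 1 of mouse 1 and between 37.1% and 56.7% in the other tumors.

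The order of the 29 members by level was alike in the 5 other tumors, with Spearman's rho of 0.921 to 0.992 in 10 pairs, and less so with tumor 1 of mouse 1, at 0.500 to 0.560 in 5 pairs. These describe 29 genes and are not tests, since the genes share libraries. Between tumors 2 and 3 of mouse 1 the members differed by a median of 0.06 on the log2(TPM + 1) scale, against 0.29 to 0.65 in the 9 remaining pairs that leave out tumor 1 of mouse 1, while the 5 pairs that include it ranged from 1.62 to 2.21.

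Mouse 2 was compared with mouse 1 by edgeR's quasi-likelihood test on 13268 genes. This compares 2 animals, and its p-values measure only the spread between tumors of 1 animal. With 6 tumors, 0 genes were called higher in mouse 2 and 0 lower, a background of 0.0% in each direction. At an unadjusted p under 0.05 there were 1449 genes, or 10.9%, and limma-voom also called 0 genes while DESeq2 called 133 higher and 69 lower. All 29 members were tested and 0 passed with any of these tools, with 2 at an unadjusted p under 0.05 in edgeR. The fold change was positive for 26 members and negative for 3, while 47.0% of all genes tested had a positive value. The members' median log2 fold change was 0.54, against -0.04 over all genes tested. These 26 positive values depend on tumor 1 of mouse 1, since without it 18 members were positive and 11 negative. Without it 51.2% of all genes were positive, and the members' median was 0.13, against 0.01 over all genes. The counts depend on the scaling too, as does the median over all genes. By library size alone 17 members were positive and 12 negative, while 24.4% of all genes were positive. The members' median was 0.22 there, against -0.55 over all genes. With limma on log2(TPM + 1) 18 members were positive and 11 negative, while 19.6% of all genes were positive. The members' median was 0.23 there, against -0.57 over all genes. By library size alone and without tumor 1 of mouse 1, 7 members were positive and 22 negative, while 29.7% of all genes were positive. The members' median was then -0.14, against -0.24 over all genes.

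Without that tumor edgeR called 56 genes higher in mouse 2 and 112 lower, which is 0.419% and 0.837% of 13374 genes, and 0 of 29 members. At an unadjusted p under 0.05 there were 2676 genes, or 20.0%, and 2 members, Mylip and Mvk. DESeq2 called 782 genes higher and 587 lower without it and limma-voom 177 and 300, and neither called a member. Mylip averaged 1.31 ± 0.309 TPM in mouse 2 and 7.09 ± 6.66 TPM in mouse 1 (SD, n = 3 each), with a log2 fold change of -1.52 (SE 0.55, edgeR adjusted p = 0.42) that was -0.79 (SE 0.25, edgeR adjusted p = 0.167) without tumor 1 of mouse 1. Soat1 had a log2 fold change of -1.98 (SE 0.73, edgeR adjusted p = 0.423), and -0.91 (SE 0.38, edgeR adjusted p = 0.265) without that tumor. Every tumor of mouse 2 had less of both genes than every tumor of mouse 1, on TPM and on TMM-scaled counts, with and without that tumor. With 6 tumors the same held for 41.9% of all genes on TPM and 14.4% on TMM-scaled counts. Without that tumor it held for 57.4% and 22.7%. Tm7sf2, at a log2 fold change of 1.25 (SE 0.74), and Ebp, at 1.20 (SE 0.74), had the largest positive values, with edgeR adjusted p of 0.586 and 0.598. Fdps had 1.10 (SE 0.92), Sc5d 0.89 (SE 0.76) and Insig2 0.86 (SE 0.65), with edgeR adjusted p of 0.699, 0.704 and 0.674, and Sqle 0.56 (SE 0.78, edgeR adjusted p = 0.809). Without tumor 1 of mouse 1, Tm7sf2 and Ebp had 0.78 (SE 0.41) and 0.75 (SE 0.49), with edgeR adjusted p of 0.353 and 0.447. Fdps, Sc5d and Insig2 then had 0.57 (SE 0.26), 0.40 (SE 0.16) and 0.41 (SE 0.23), with edgeR adjusted p of 0.294, 0.255 and 0.384. Sqle was then at 0.05 (SE 0.15, edgeR adjusted p = 0.885). The sign itself depended on tumor 1 of mouse 1 for 10 of 29 members, against 27.6% of all genes, namely Hmgcs1, Mvk, Ggps1, Srebf2, Pmvk, Lss, Cyp51, Hsd17b7, Insig1 and Stard4. The log2 fold changes of Hmgcs1, Mvk, Ggps1 and Srebf2 were 0.33, 0.07, -0.92 and 0.16 for 6 tumors and -0.15, -0.37, 0.32 and -0.027 without it.

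**Figure D5:**
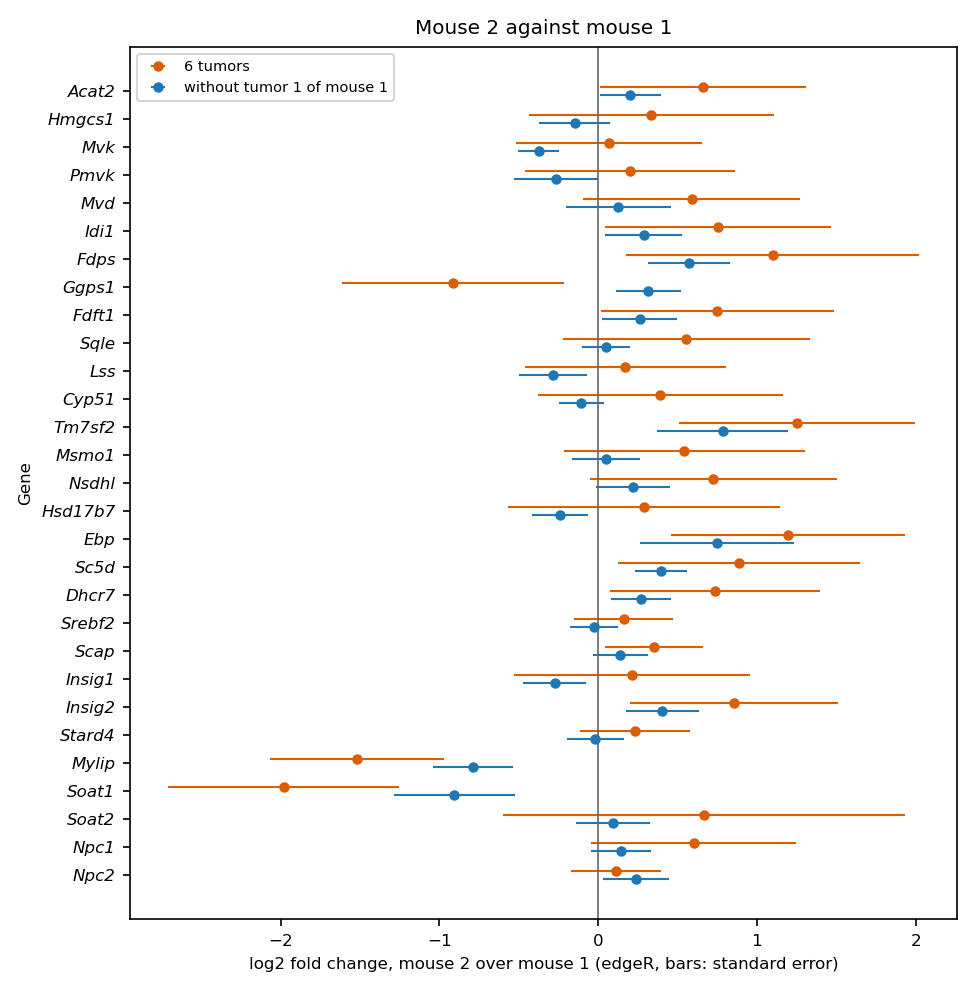
log2 fold change of each member, mouse 2 over mouse 1, from edgeR on TMM-scaled counts, with bars for the standard error, for 6 tumors and without tumor 1 of mouse 1. Mylip at -1.52 and -0.79 and Soat1 at -1.98 and -0.91 lie lowest, and no member passed the test.

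Scaling set the direction between the animals for many members. On TPM, every tumor of mouse 2 lay below every tumor of mouse 1 for 6 members, Ggps1, Srebf2, Scap, Stard4, Mylip and Soat1, against 41.9% of all genes, and above for 0 members, against 1.75%. Without tumor 1 of mouse 1 it was 20 members below, against 57.4% of all genes, and 0 above, against 4.51%. On TMM-scaled counts of 6 tumors Fdps, Tm7sf2, Sc5d and Insig2 were higher in every tumor of mouse 2, 4 members against 12.8% of all genes, and Mylip and Soat1 were lower, 2 members against 14.4%. Without tumor 1 of mouse 1 these were 5 members higher, against 22.4%, and 6 lower, Mvk, Lss, Cyp51, Hsd17b7, Mylip and Soat1, against 22.7%. Srebf2 averaged 38.2 ± 2.17 TPM in mouse 2 and 56.6 ± 1.56 TPM in mouse 1 (SD, n = 3 each), yet its log2 fold change on TMM-scaled counts was 0.16 (SE 0.31, edgeR adjusted p = 0.859). The higher mitochondrial share in mouse 2 moved with this difference between the scales, and leaving out mitochondrial genes brought the TPM count of members below to 3, Srebf2, Mylip and Soat1, against 27.9% of all genes, with Fdps and Sc5d above, against 3.96%.

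The rest of the pathway was read from 6 further lists of 41 genes. Of these 40 were tested and 0 passed in edgeR in either direction, with a smallest adjusted p of 0.514, and 0 passed without tumor 1 of mouse 1. Erg28, a scaffold of the demethylation enzymes in yeast, had 107, 118 and 128 TPM in mouse 2, against 49.4, 121 and 120.1 TPM in mouse 1. Lbr, a nuclear envelope protein with the reductase activity of Tm7sf2, had 3.46, 3.70 and 3.94 TPM in mouse 2, against 19.5, 5.16 and 5.96 TPM in mouse 1, so these late-step genes also split, with Lbr opposite to Tm7sf2. Of acetyl-CoA suppliers, Slc25a1, the mitochondrial citrate carrier, had 154, 199 and 148 TPM in mouse 2, against 26.4, 250.1 and 267 TPM in mouse 1. Acat1, the mitochondrial thiolase, had 118, 142 and 166 TPM in mouse 2, against 36.3, 176 and 173 TPM in mouse 1. Acly, which cleaves the exported citrate and was singled out after its values were seen, was opposite, at 22.3, 39.9 and 24.6 TPM in mouse 2, against 223, 45.0 and 52.7 TPM in mouse 1. Of the enzymes that use isoprenoids, Coq2, the prenyltransferase of ubiquinone synthesis, had 41.0, 54.6 and 38.9 TPM in mouse 2, against 44.6, 52.2 and 55.3 TPM in mouse 1. Fnta, the shared subunit of the protein prenyltransferases, had 16.7, 24.3 and 18.8 TPM in mouse 2, against 91.1, 22.5 and 23.7 TPM in mouse 1. On TPM, 5 of 9 genes of that list were highest in tumor 1 of mouse 1 and 0 lowest, against 62.6% and 22.2% of all genes. On TMM-scaled counts 4 were highest there and 4 lowest, against 43.7% and 40.3%.

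Among genes of sterol efflux and ester hydrolysis, 7 of 9 were lowest in tumor 1 of mouse 1, against 22.2% of all genes, and 8 of 9 on TMM-scaled counts, against 40.3%. Cyp27a1, a sterol hydroxylase of bile acid synthesis, had 283, 196 and 252 TPM in mouse 2, against 67.5, 347 and 352 TPM in mouse 1. Scarb1, the HDL receptor, had 154, 81.4 and 105 TPM in mouse 2, against 19.2, 197 and 215 TPM in mouse 1. Lipa, the lysosomal acid lipase, had 135, 148 and 91.5 TPM in mouse 2, against 22.1, 158 and 162 TPM in mouse 1. The proteases and degradation factors showed no common pattern, with 5 of 9 highest in tumor 1 of mouse 1, against 62.6% of all genes, and 1 lowest, while on TMM-scaled counts 2 were highest and 5 lowest, against 43.7% and 40.3%. Vcp, the ATPase of protein extraction, had 83.2, 118 and 92.3 TPM in mouse 2, against 114, 177 and 185 TPM in mouse 1. Of the START-domain relatives, Stard5 had 54.4, 58.7 and 50.9 TPM in mouse 2, against 5.71, 72.9 and 70.1 TPM in mouse 1, and Gramd1a, which carries cholesterol from the plasma membrane, had 7.94, 6.42 and 3.75 TPM in mouse 2, against 51.9, 8.85 and 6.44 TPM in mouse 1, the reverse order.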

How the data were processed

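RNA of 6 tumors from 2 mice was measured and no tumor was left out. Libraries were made by poly A enrichment and sequenced as paired reads, although the text of the series speaks of total RNA, and no source used here gives their strandedness. The authors deposited estimated counts per transcript, which hold fractions of reads and carry no normalization. Beside them the authors deposited TPM, in which length and depth are taken out. The layout is that of Salmon, which the paper lists among its software. The submitters' processing notes list GRCm38, BWA and Picard with no role, and the paper names BWA and Picard for the alignment of its exome reads.

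Of 116546 transcripts, 114813 were matched without version to GENCODE vM39, used for names alone, and both units were summed per gene. Transcripts without a match took 0.373% to 0.680% of the counts. Positions are RefSeq GRCm38.p6. Depth limits single members to between 29 and 23233 estimated counts per tumor. Summed counts were rounded, filtered with filterByExpr, scaled by TMM and tested, mouse 2 against mouse 1, with edgeR 4.0.16 (quasi-likelihood, two-sided, Benjamini-Hochberg over all genes, calls at an adjusted p under 0.05), after a trial on simulated data. DESeq2 1.42.0, limma 3.58.1, other scalings and filters, a block on tumor number and the omission of each tumor were alternatives, and 4 fits without tumor 1 of mouse 1 were added after the data were seen. Shares of all genes use a mean of at least 1 TPM, and log2 TPM a pseudocount of 1. Fold changes are given for Srebf2, Hmgcs1, Sqle and up to 6 members with the smallest p in each of the fits with and without that tumor, and of each further list the 1 to 3 genes with the highest mean are named, beside Acly, which was chosen after its values were seen. The members and lists were chosen with earlier results of these data known. Some genes are not reported here. Scripts ran in R 4.3.3 and in Python 3.11.15 with pandas 2.3.3, numpy 2.4.6 and matplotlib 3.10.9.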

Additional observations from a re-analysis of the deposited data

Results flagged for a closer look

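A gap to the nearest tumor that exceeded Dixon's 95% critical value for 6 values, as a share of the whole range of log2(TPM + 1), marked 12 of 29 members, each in tumor 1 of mouse 1. Chance marks about 1 in 20 sets of values, and over the 12518 genes that averaged at least 1 TPM 4859, or 38.8%, were marked, so that the members' share is near that of all genes. The tumor was lowest for 11 of these members. The ratio was 0.927 for Sc5d, 0.837 for Fdps, 0.812 for Soat2, 0.779 for Nsdhl, 0.746 for Dhcr7 and 0.723 for Acat2. It was 0.719 for Fdft1, 0.677 for Msmo1, 0.672 for Hsd17b7 and 0.669 for both Idi1 and Sqle. The tumor was highest for Ggps1, with a ratio of 0.715. Hepatocyte markers were lowest in the same tumor, and their part in these values was not tested.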

How the results depend on the processing

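The members' call did not depend on the processing, since 0 of 29 passed in any of 19 fits, with a smallest adjusted p of 0.0863 (DESeq2 without tumor 1 of mouse 1). The number of genes called did. DESeq2 called 133 higher and 69 lower in mouse 2. Leaving out 1 tumor at a time gave 0 to 56 higher and 0 to 112 lower, the highest counts being those without tumor 1 of mouse 1. Without that tumor the counts were 782 and 587 in DESeq2, 177 and 300 in limma-voom, 20 and 131 with library size alone, and 54 and 111 without mitochondrial genes. The sign of 5 of the 12 members with a printed fold change turned. Without tumor 1 of mouse 1 the log2 fold changes of Srebf2, Hmgcs1, Ggps1 and Mvk were -0.030, -0.15, 0.31 and -0.38 in DESeq2, -0.029, -0.17, 0.33 and -0.37 in limma-voom, -0.29, -0.43, 0.065 and -0.63 with library size alone, and -0.026, -0.15, 0.32 and -0.37 without mitochondrial genes. Sqle turned to -0.20 with library size alone. With 6 tumors, Srebf2 and Mvk were -0.29 and -0.26 with library size alone and -0.55 and -0.37 with limma on log2(TPM + 1). Leaving out 1 tumor at a time moved Srebf2 between -0.027 and 0.28, Hmgcs1 between -0.15 and 0.67, Ggps1 between -1.28 and 0.32 and Mvk between -0.37 and 0.38. The cause was not tested. Members that did not overlap between the mice numbered 4 above and 2 below on TMM-scaled CPM (12.8% and 14.4% of all genes), 2 above and 3 below without mitochondrial genes (3.96% and 27.9%), and 0 to 1 above and 6 to 20 below when 1 tumor was left out, the 20 being without tumor 1 of mouse 1 (57.4% of all genes below). Without mitochondrial genes the summed enzyme level was 3126, 3395 and 3893 TPM in mouse 2 and 694, 3592 and 3661 TPM in mouse 1, and the median 121, 125 and 123 TPM in mouse 2 and 31.5, 135 and 141 TPM in mouse 1, a shift that follows from the smaller total. On log2 of TMM-scaled CPM, 22 members and 40.6% of all genes had a tumor that stood apart, against 12 members and 38.8% of genes on TPM. Tumors with the same number did not vary together, with correlations of 0.034, -0.068 and 0.073, and a block on tumor number called 0 genes and moved the members' median to 0.87. A member with 29 estimated counts in a tumor is the least precise value.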
